A study of Mus musculus with 35 samples.

Results

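The libraries described here are total RNA-seq libraries of mouse embryonic stem cells (ESCs), collected 1 day after induced deletion of *Dnmt1*. They were chosen by the day and the genotype in the sample titles, which gave 6 of the 35 libraries of the series. Of these, 3 were WT (titled control, genotype Wildtype) and 3 were KO (titled DNMT1KO, genotype Dnmt1 KO). The titles number them from 1 to 3 within each genotype, and a WT and a KO library with the same number are called a pair here. All 6 carry E14 as the background strain in their labels, whereas the study methods name C57BL/6 for the conditional *Dnmt1* ESCs. Tamoxifen (4OHT) switched on Cre recombinase, which removed a conditional *Dnmt1* allele (study methods), in cells grown in serum with LIF and with or without feeder cells. The sources used here do not say whether the WT cells received tamoxifen, whether feeder cells were present at day 1 or which exons were removed. Day 0, before deletion, and day 3 have 2 WT and 2 KO libraries each and serve for comparison. Nothing in the labels ties a library to a culture of its own, so the p-values measure the spread between these libraries, which may be technical in part.

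DNMT1 is the maintenance DNA methyltransferase, which copies CpG methylation onto the new strand after each round of replication. Without it, methylation is diluted as cells divide. In ESCs, promoter methylation keeps many germline genes silent, and imprinted genes carry methylation on a single parental copy. Libraries taken at day 1 show the transcriptome at the point where *Dnmt1* RNA has just fallen.

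The values are linear RPKM, a read number scaled by exon length in kilobases and by library size in mega-reads. Library size ran from 29.4 to 59.8 mega-reads, with 7.27 to 16.7 mega-reads in gene exons. That was a share of 21.8% to 21.9% in the libraries of pairs 1 and 2, but of 48.1% to 48.6% in the third pair. RPKM levels of the third pair are therefore not on the same footing as those of the others, and KO was compared with WT within each pair. Differences are KO minus WT on the log2(RPKM + 0.1) scale, where low genes appear to change less than they do. A gene was called where limma gave a Benjamini-Hochberg adjusted p below 0.05 over the 11615 genes tested. At day 0 no gene was called by limma (0%), and 235 had an unadjusted p below 0.05.

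Genes that define ESCs were expressed in all 6 libraries. The 26 genes of the pluripotency list summed to between 885.9 and 895.3 RPKM in pairs 1 and 2, and to 1703 RPKM in WT and 1648 RPKM in KO of the third pair. Fibroblast genes, which feeder cells would bring, set the pairs apart. The 24 genes of that list summed to 27.2 and 27.5 RPKM in WT and 35.0 and 34.7 RPKM in KO of pairs 1 and 2, and to 16.6 RPKM in WT and 13.2 RPKM in KO of the third pair. The sums of the third pair rest largely on few genes, since 2 of the 24 were above 1 RPKM in each of its libraries. *Tagln*, of this list, stayed expressed there, with 628, 337 and 546 reads in WT and 425, 495 and 468 reads in KO of pairs 1, 2 and 3. It thus did not follow the collagen genes. *Col1a2*, a chain of type I collagen, had 1.83, 1.91 and 0.0393 RPKM in WT and 2.91, 2.52 and 0.0285 RPKM in KO of pairs 1, 2 and 3, so it was close to absent from the third pair. In bulk RNA, fewer cells of a type and less RNA per cell cannot be told apart.

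*Dnmt1* RNA fell within the first day in every pair, and less so in the third. The gene lies on chromosome 9 between 20711650 and 20757317, minus strand (ENSMUSG00000004099.8) in NCBIM37. It had 17.9, 18.1 and 19.5 RPKM in WT and 2.86, 3.04 and 8.13 RPKM in KO of pairs 1, 2 and 3. KO kept 15.9% of the WT level in pair 1, 16.8% in pair 2 and 41.6% in pair 3, and every KO value lay under every WT value. The means were 18.5 ± 0.876 RPKM in WT against 4.67 ± 2.99 RPKM in KO (SD, n = 3), and the fall was -2.13 on the log2 scale with an SE of 0.18 (adjusted p = 0.000113 in limma). At day 0 the WT libraries had 18.3 and 18.4 RPKM and the KO libraries 18.7 and 18.5 RPKM. The difference of the third pair was 1.32 smaller in size than that of the others (SE 0.18, limma adjusted p = 0.0113), a test that assumes this pair to vary like the rest. The RPKM covers all exons and does not separate an intact from a truncated transcript.

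*Junb* was the only other gene called, so that 2 of 11615 passed (0.0172%). It codes for a subunit of AP-1, a transcription factor that cells induce soon after a growth signal or stress, and lies on chromosome 8 between 87500811 and 87502617, minus strand (ENSMUSG00000052837.4) in NCBIM37. It had 3.78, 3.88 and 9.43 RPKM in WT and 7.28, 8.83 and 12.3 RPKM in KO. Each KO library was above its own WT partner, although the third WT library was above both KO libraries of pairs 1 and 2. The pair differences were 0.93, 1.17 and 0.39, and the fitted rise was 0.83 (SE 0.11, limma adjusted p = 0.0089). *Junb* had 3.77 and 3.84 RPKM in WT and 4.05 and 4.11 RPKM in KO at day 0. The call was kept in 7 of 12 other ways of processing the data, with fitted values from 0.66 to 1.05. When only the 6 libraries of day 1 were fitted, no gene was called and *Dnmt1* itself was at a limma adjusted p of 0.572.

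The *Junb* promoter is shown because no other gene rose past the threshold at day 1. It runs from 250 bases before to 50 after the RefSeq start site (GRCm38.p6, chr8:84978699-84978998, minus strand), and the capitals mark a CCAAT box, the letters bound by the general factor NF-Y.
Junb: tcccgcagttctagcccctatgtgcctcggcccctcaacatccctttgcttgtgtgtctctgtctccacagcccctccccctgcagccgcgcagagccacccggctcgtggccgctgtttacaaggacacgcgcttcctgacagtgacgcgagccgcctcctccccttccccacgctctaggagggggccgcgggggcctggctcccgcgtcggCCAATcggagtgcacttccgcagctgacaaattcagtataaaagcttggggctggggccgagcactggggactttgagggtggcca
The box is at -36 to -32 from the start site. CCAAT, searched on both strands, was in 37.4% of the 32851 promoters of the RefSeq table, so the match is common. The CArG box, bound by the serum response factor at immediate-early genes, was not among the letters of this window, and 1.63% of all promoters held it.

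**Figure D1:**
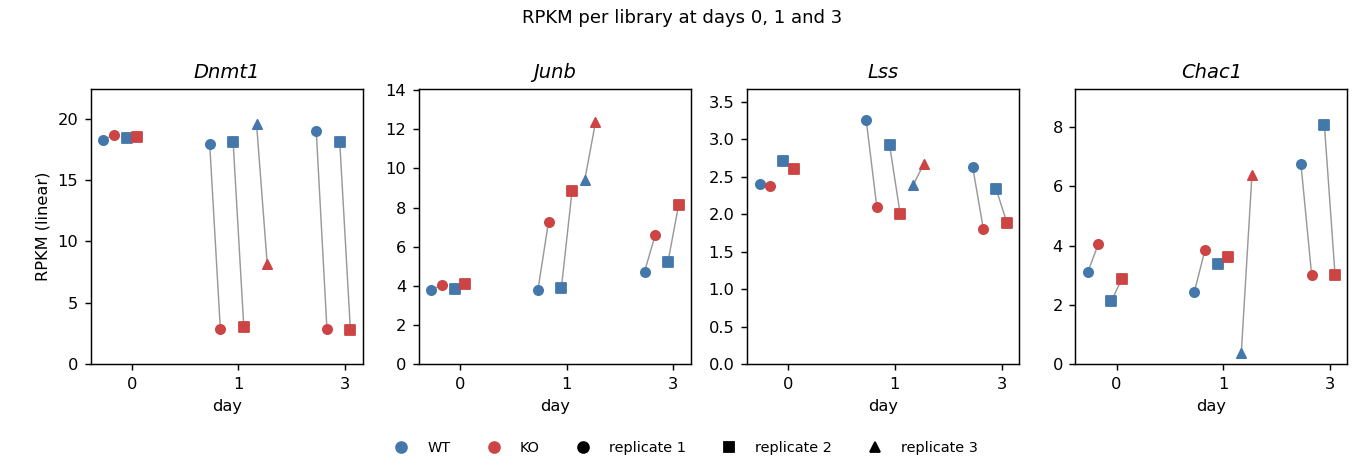
RPKM per library (vertical axes, linear, from 0) of 4 genes at days 0, 1 and 3 (horizontal axes), with WT in blue, KO in red, a marker shape for each replicate number and a grey line joining the libraries of a pair. *Dnmt1* was low in KO from day 1, with 8.13 RPKM in the third KO library; *Junb* was higher in KO in every pair of days 1 and 3; *Lss* was lower in KO in pairs 1 and 2 of day 1 but not in the third; the third WT library of day 1 had 0.375 RPKM of *Chac1*.

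The 8 genes next in order of p in each direction did not pass and are given as values. *Ddit4*, an inhibitor of the growth kinase mTORC1, had 9.24, 9.02 and 2.81 RPKM in WT and 12.2, 15.6 and 7.80 RPKM in KO (0.88, limma adjusted p = 0.0678). *Socs3*, which damps LIF and cytokine signals, had 5.92, 5.79 and 12.6 RPKM in WT and 7.58, 10.3 and 16.2 RPKM in KO (0.51, limma adjusted p = 0.0678). *Ifitm3*, an antiviral membrane protein, had 13.8, 11.4 and 24.7 RPKM in WT and 18.3, 17.5 and 30.01 RPKM in KO (0.43, limma adjusted p = 0.0753). In these genes KO was above WT in each pair, while the WT and KO ranges overlapped over the 6 libraries. The other 5 on that side were *Inpp5d* (0.41), *Hpcal1* (0.44), *Cox6b2* (0.65), *Plod2* (0.32) and *Crip2* (0.45), with limma adjusted p from 0.11 to 0.136. *Cox6b2*, the testis form of a subunit of cytochrome c oxidase, had 4.19, 4.57 and 3.52 RPKM in WT and 6.72, 6.36 and 6.23 RPKM in KO, without overlap.

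On the lower side were *Wdyhv1* (-0.53), *Rbm3* (-0.33), *Stag3* (-0.32), *Zfp936* (-0.29), *Fam72a* (-0.51), *Gm14139* (-0.33), *Gm15932* (-0.61) and *Srsf5* (-0.25), with limma adjusted p from 0.136 to 0.191. *Rbm3*, an RNA-binding protein known for its response to cold, had 17.22, 16.2 and 54.8 RPKM in WT and 13.0, 14.2 and 41.6 RPKM in KO. *Stag3*, a cohesin subunit of meiosis, had 2.70, 2.90 and 2.67 RPKM in WT and 2.26, 2.22 and 2.09 RPKM in KO, again without overlap. *Zfp936* and *Gm14139* belong to large zinc finger families whose members share reads, and their values are uncertain.

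Immediate-early and stress genes were mostly higher in KO. These genes answer a growth factor or stress signal within minutes to hours, and many code for transcription factors and for inhibitors of the signal itself. Of the 35 listed, 29 were tested; *Fos*, *Fosb*, *Fosl1*, *Egr2*, *Egr3* and *Hspa1a* were too low. *Junb* was the member called. With an unadjusted limma p below 0.05, 17 were higher and 0 lower, where all genes gave 6.43% higher and 4.61% lower. This list and those below were chosen with earlier results of these data known. Their counts beside all genes are therefore a description and not a test. The 3 pairs went the same way for 18 genes, all of them higher in KO, where 32.4% of all genes went 1 way in all pairs. The list median was 0.33 over the pairs (0.42, 0.23 and 0.26 in pairs 1, 2 and 3), beside 0.01 for all genes, and -0.01 at day 0. Members with large differences varied between the pairs. *Chac1*, *Ddit4*, *Trib3* and *Ddit3*, stress genes of the list, had 3.77, 1.44, 1.09 and 1.04 in the third pair. In pair 1 they had 0.64, 0.40, 0.37 and 0.14, and in pair 2 0.10, 0.79, -0.22 and 0.63. *Cyr61*, *Ctgf* and *Dusp6* had 1.22, 0.93 and 0.62 in pair 1 but 0.05, -0.24 and -0.11 in the third.

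Among the transcription factors of this list, *Egr1*, a zinc finger factor of the early wave, had 0.211, 0.242 and 0.385 RPKM in WT and 0.745, 0.519 and 0.874 RPKM in KO. *Atf3*, a factor of the stress response, had 0.852, 0.982 and 0.670 RPKM in WT and 1.37, 1.45 and 1.19 RPKM in KO. For both genes every KO library was above every WT library, and neither was called (limma adjusted p = 0.191 and 0.244). *Jun*, which codes for another subunit of AP-1, had 1.34, 1.48 and 0.705 RPKM in WT and 2.13, 2.28 and 0.750 RPKM in KO, so that its difference was small in the third pair. Among the inhibitors of signalling, *Dusp1*, a phosphatase of MAP kinases, had 1.204, 1.16 and 7.04 RPKM in WT and 1.68, 1.77 and 11.5 RPKM in KO. *Spry4*, an inhibitor of receptor tyrosine kinase signalling, had 1.295, 1.64 and 15.2 RPKM in WT and 2.87, 1.93 and 20.2 RPKM in KO. Both were higher in KO in each pair. *Dusp6*, a phosphatase of the ERK kinases, had 4.72, 5.09 and 36.1 RPKM in WT and 7.33, 7.16 and 33.5 RPKM in KO, and was higher in KO in pairs 1 and 2 only. *Cyr61*, a secreted matrix protein, had 6.52, 7.52 and 5.43 RPKM in WT and 15.3, 15.4 and 5.63 RPKM in KO. *Ctgf*, of the same family, had 5.15, 5.94 and 6.94 RPKM in WT and 9.87, 8.28 and 5.87 RPKM in KO. For these matrix genes KO was far above WT in pairs 1 and 2, while in the third pair KO lay within the WT range. *Klf10* (0.04) and *Asns* (0.04) were close to 0, and *Hspa1b* (-0.19) was the only tested member with a negative fitted value.

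Without the third pair, limma called 20 genes (0.172%), 14 higher and 6 lower in KO, and the third pair had the same direction in 8 of them. Those that rose included *Junb* (1.05), *Cyr61* (1.12), *Dusp6* (0.55) and *Ctgf* (0.70) of the immediate-early list, and *Cdkn1a* (0.76), *Btg2* (0.74) and *Plk2* (0.57) of the p53 list. The remaining ones were *Socs3* (0.59), *Ifitm3* (0.51), *Epha2* (0.57), an ephrin receptor, *Errfi1* (0.51), an inhibitor of the EGF receptor, *Timp1* (0.48), an inhibitor of matrix proteases, *Banp* (0.68) and *Gm10362* (0.80). *Banp*, a transcription factor of CpG island promoters, had 1.21, 1.08 and 2.95 RPKM in WT and 1.83, 1.93 and 2.73 RPKM in KO. Of the 20 genes, 16 had the same direction at day 3, and 9 were also called there. Beside *Dnmt1*, the 5 that fell were all genes of sterol synthesis.

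Targets of p53 were mostly higher in pairs 1 and 2, but not in the third pair. There 14 of the 24 tested were lower and 10 higher, where all genes gave 47.5% and 52.4%. p53 is the transcription factor that halts the cell cycle or starts cell death after DNA damage. Of 26 listed targets, 24 were tested (*Fas* and *Gdf15* were too low). None was called in limma over the 3 pairs, and 9 were higher and 0 lower with an unadjusted p below 0.05, where all genes gave 6.43% and 4.61%. In both pairs 1 and 2, 19 were higher and 1 lower, where all genes gave 29.2% and 26.9%. In 14 genes the third pair went against pairs 1 and 2 (13 of them lower in it), as it did in 23.7% of all genes. The list median was 0.27 in each of pairs 1 and 2 and -0.11 in the third.

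*Cdkn1a*, the cell cycle inhibitor p21, had 1.31, 1.70 and 5.58 RPKM in WT and 2.52, 2.67 and 4.91 RPKM in KO. *Btg2*, an inhibitor of proliferation, had 4.73, 4.81 and 6.91 RPKM in WT and 8.12, 7.96 and 6.01 RPKM in KO. *Mdm2*, the ligase that marks p53 for degradation, had 7.05, 7.26 and 12.4 RPKM in WT and 9.77, 9.56 and 11.4 RPKM in KO. In each, KO was above WT in pairs 1 and 2 and below it in the third pair, so that the ranges overlapped. The 6 targets higher in all 3 pairs were *Bbc3*, *Sesn2*, *Pmaip1*, *Gtse1*, *Ephx1* and *Zmat3*. *Bbc3*, which starts cell death at mitochondria, had 4.10, 4.24 and 2.09 RPKM in WT and 4.93, 5.12 and 3.33 RPKM in KO (0.39, limma adjusted p = 0.141). *Sesn2*, a stress sensor upstream of mTORC1, had 5.19, 5.46 and 3.94 RPKM in WT and 6.50, 6.05 and 7.48 RPKM in KO, without overlap. *Trp53* itself had 2.26, 2.58 and 15.8 RPKM in WT and 3.86, 2.44 and 16.6 RPKM in KO, with a clear difference in pair 1 only.

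Genes of sterol synthesis were lower in KO in pairs 1 and 2, and most were higher in the third pair. Their enzymes build cholesterol from acetyl-CoA, and the transcription factor SREBP2 raises them together when the cell is short of sterol. Of 24 listed genes, 23 were tested. None was called over the 3 pairs in limma, and 6 were lower and 0 higher with an unadjusted p below 0.05, where all genes gave 4.61% and 6.43%. In both pairs 1 and 2, 21 were lower and 0 higher, where all genes gave 26.9% and 29.2%. Of those 21, 17 were higher in the third pair, which went against pairs 1 and 2 in 23.7% of all genes. The list median was -0.41, -0.29 and 0.16 in pairs 1, 2 and 3, beside -0.03 at day 0 and -0.18 at day 3.

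Without the third pair *Sc4mol* (-0.58), *Lss* (-0.57), *Sqle* (-0.55), *Insig1* (-0.48) and *Idi1* (-0.47) fell. *Sqle*, which oxidizes squalene, had 6.01, 5.40 and 10.2 RPKM in WT and 3.92, 3.82 and 10.8 RPKM in KO. *Lss*, which closes the sterol rings, had 3.26, 2.92 and 2.38 RPKM in WT and 2.10, 2.00 and 2.67 RPKM in KO. *Sc4mol*, which removes methyl groups from the ring system, had 8.45, 7.72 and 9.24 RPKM in WT and 5.39, 5.31 and 11.6 RPKM in KO. In these enzymes KO was below WT in pairs 1 and 2 and above it in the third pair. *Insig1*, which holds SREBP in the endoplasmic reticulum and is itself an SREBP target, had 20.1, 18.1 and 17.07 RPKM in WT and 12.8, 14.4 and 20.2 RPKM in KO. It followed the enzymes, and only *Idi1*, *Hsd17b7*, *Mvd* and *Mvk* were lower in all 3 pairs.

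The promoters of *Lss* (GRCm38.p6, chr10:76531355-76531654, plus strand) and *Idi1* (chr13:8885356-8885655, plus strand), whose product isomerizes the isoprene unit, are shown because both genes fell in pairs 1 and 2. The capitals mark CCAAT boxes, which read ATTGG here since they lie on the opposite strand, and in *Idi1* also a match to TGATGNAA on the opposite strand.
Lss: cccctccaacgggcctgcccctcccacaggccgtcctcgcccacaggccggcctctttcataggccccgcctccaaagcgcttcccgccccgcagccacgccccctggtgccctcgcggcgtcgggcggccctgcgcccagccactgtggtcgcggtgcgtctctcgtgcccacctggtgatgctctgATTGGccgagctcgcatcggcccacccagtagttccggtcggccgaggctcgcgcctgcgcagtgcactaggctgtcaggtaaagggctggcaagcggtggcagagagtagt
Idi1: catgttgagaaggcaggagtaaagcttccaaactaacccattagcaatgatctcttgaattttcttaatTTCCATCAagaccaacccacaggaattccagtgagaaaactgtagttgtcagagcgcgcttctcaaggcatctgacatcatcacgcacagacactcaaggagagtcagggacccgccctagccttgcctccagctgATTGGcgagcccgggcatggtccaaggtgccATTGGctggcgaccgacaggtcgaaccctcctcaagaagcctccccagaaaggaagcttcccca
The boxes are at -62 to -58 in *Lss* and at -45 to -41 and -14 to -10 in *Idi1*, where the TGATGNAA match is at -181 to -174. Of the 23 tested members, 16 had a promoter in the RefSeq table, and 15 of these held CCAAT on either strand (93.8%), beside 41.1% of all 27025 genes with a promoter there. The share was above that of all genes in other lists too, with 59.1% of the 22 immediate-early and stress genes and 63.2% of the 19 p53 targets that had a promoter. CACCCCAC, letters of the classical sterol element, were in 1 of the 16 and in 3.30% of all genes with a promoter. NF-Y is known to act beside SREBP at such promoters, and a match of letters shows neither factor here.

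**Figure D2:**
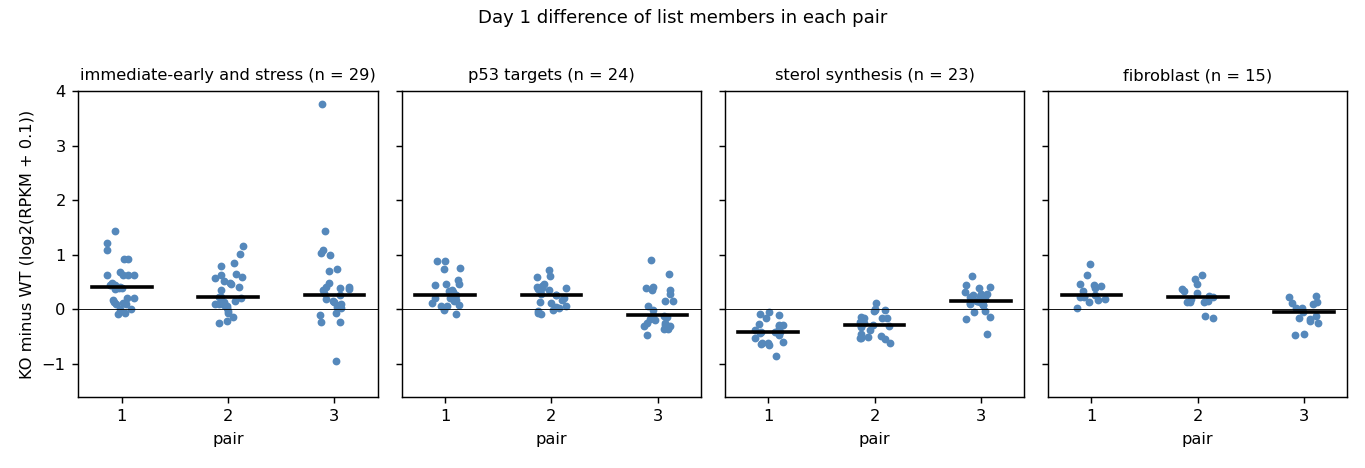
KO minus WT difference on the log2(RPKM + 0.1) scale (vertical axis) of the tested members of 4 gene lists in pairs 1, 2 and 3 of day 1 (horizontal axes), where each point is a gene and the black bar is the list median. The p53 medians go from 0.27 in pairs 1 and 2 to -0.11 in the third and the sterol medians from -0.41 and -0.29 to 0.16, while the immediate-early and stress medians lie between 0.23 and 0.42.

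Fibroblast genes were mostly higher in KO in pairs 1 and 2, and most were near the floor in the third pair. Of the 24 listed, 15 were tested and none was called. In both pairs 1 and 2, 13 were higher and 0 lower in KO, where all genes gave 29.2% and 26.9%. The medians were 0.27 and 0.23, and the third pair had a median of -0.04. In the third pair the median level of the 24 genes was 0.0859 RPKM in WT and 0.0718 RPKM in KO. Both lie under the 0.1 added before the log, so a difference there could hardly show. At day 0 the median was 0.17. *Col1a1*, the other chain of type I collagen, had 1.34, 1.52 and 0.0571 RPKM in WT and 2.48, 2.29 and 0.0834 RPKM in KO (0.54, limma adjusted p = 0.298). *Acta2*, the actin of contractile cells, had 3.50, 3.04 and 1.21 RPKM in WT and 4.88, 4.79 and 1.00 RPKM in KO. *Vim*, an intermediate filament that fibroblasts express strongly, had 17.7, 17.3 and 12.9 RPKM in WT and 22.8, 23.1 and 9.38 RPKM in KO. *Timp1*, which they also express, had 5.94, 5.63 and 13.2 RPKM in WT and 8.15, 8.08 and 10.4 RPKM in KO. Each was higher in KO in pairs 1 and 2, and the collagen genes were near 0 in both libraries of the third pair. Between 10 and 11 of the 24 fibroblast genes were above 1 RPKM in the libraries of pairs 1 and 2 and 2 of them in the third pair, and between 0 and 3 were at 0. *Lum* and *Dcn*, proteoglycans that define fibroblasts, had at most 0.0544 and 0.0879 RPKM in any of the 6 libraries. The part of fibroblast RNA and of the share of reads in genes in the differences of *Cyr61*, *Ctgf*, *Timp1*, the p53 targets and the sterol genes was not tested.

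The third pair had differences of its own. Taken alone, it gave 66 genes below the threshold in limma (0.568%), 56 higher and 10 lower in KO, and 27 of them had the same direction in both other pairs. This count takes the spread from other libraries, while over genes the differences of the third pair had an SD of 0.33, beside 0.21 and 0.23 in pairs 1 and 2, and it is given as a description. It includes *Gm17426*, which had 0 reads in WT and 1 read in KO of that pair. Set against pairs 1 and 2, its difference was distinct for 24 genes (0.207%), more positive for 16 and more negative for 8, and for 16 of the 24 the signs were opposite. The same limit holds for these 24. They became 284 without the filter on low values, 5 without pair 1, 1 without pair 2 and 51 without a block for the pairs. Other days enter through the spread alone, and the count was 5 without the 4 libraries of day 6 and 4 without either pair of day 3. Single libraries of day 0 were left out only in the fit without a block, where the count was 51. There it was 53 without either WT library of day 0 and 37 without either KO library of day 0. Each value of the third pair rests on a single WT and a single KO library.

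*Chac1* differed most. It codes for an enzyme that degrades glutathione, induced through ATF4 when amino acids are scarce or the endoplasmic reticulum is under stress, and lies on chromosome 2 between 119176965 and 119180117, plus strand (ENSMUSG00000027313.3) in NCBIM37. It had 2.44, 3.37 and 0.375 RPKM in WT and 3.86, 3.62 and 6.37 RPKM in KO, which in the third pair stands for 18 reads in WT and 362 reads in KO. The third WT library was the lowest and the third KO library the highest of the 6, and over all of them the KO values lay above the WT values. The third pair's difference was 3.399 above that of the others (SE 0.25, limma adjusted p = 3.3e-05). At day 3 the direction was the opposite, with 6.75 and 8.06 RPKM in WT and 3.02 and 2.99 RPKM in KO.

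Further genes with a more positive difference in the third pair included *Vegfa* (1.48), a growth factor for blood vessels, *Pck2* (1.41), the mitochondrial form of PEPCK, *Slc1a4* (1.23), a carrier of neutral amino acids, and *Cln6* (1.11), a protein of the endoplasmic reticulum. *Vegfa* had 2.90, 3.25 and 0.770 RPKM in WT and 3.68, 3.58 and 2.75 RPKM in KO. *Pck2* had 3.18, 3.45 and 1.27 RPKM in WT and 3.56, 3.15 and 3.58 RPKM in KO. *Slc1a4* had 3.37, 3.71 and 1.81 RPKM in WT and 3.65, 3.42 and 4.35 RPKM in KO. In *Vegfa*, *Pck2* and *Slc1a4* the third WT library was the lowest of the 6, as it was for *Ddit4*. *Atf4*, the factor that induces several genes of this kind, had 46.8, 50.4 and 71.0 RPKM in WT and 45.8, 45.4 and 120.9 RPKM in KO (0.86, limma adjusted p = 0.0391), and was chosen for naming after its values were seen.

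The *Chac1* promoter (GRCm38.p6, chr2:119350992-119351291, plus strand) is shown because this gene set the third pair apart most. The capitals mark CCAAT boxes on either strand and, upstream of them, a match on the opposite strand to TGATGNAA, letters of the element that ATF4 binds.
Chac1: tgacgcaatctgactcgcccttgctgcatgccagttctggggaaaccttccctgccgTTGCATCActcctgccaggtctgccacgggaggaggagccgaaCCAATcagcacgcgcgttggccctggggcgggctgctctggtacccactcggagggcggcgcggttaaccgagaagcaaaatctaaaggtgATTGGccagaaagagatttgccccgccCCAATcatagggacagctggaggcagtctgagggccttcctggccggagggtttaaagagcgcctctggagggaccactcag
The boxes are at -150 to -146, -59 to -55 and -32 to -28, and the TGATGNAA match is at -193 to -186. Among the 16 genes with a more positive difference in the third pair, 12 had a promoter in the table, and 4 of these held TGATGNAA on either strand (33.3%), beside 4.51% of all genes with a promoter there. The same letters were in 5 of the 22 immediate-early and stress genes with a promoter (22.7%), and CCAAT was in 10 of these 12 (83.3%). TGACGTCA, the full cyclic AMP element, was in 0 of the 12 and in 2.03% of all genes with a promoter.

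On the negative side, among genes with a mean log2(RPKM + 0.1) of at least 0, were *Gm10916* (-1.50), *Cyr61* (-1.07), *Plk2* (-1.04), *Cdkn1a* (-0.94), *Vim* (-0.85) and *Timp1* (-0.82), with limma adjusted p from 0.0374 to 0.048. The most negative value of all was that of *Slc25a31* (-3.23, limma adjusted p = 0.0374), a low germline gene with 11, 1 and 26 reads in WT and 9, 11 and 1 reads in KO. The second most positive, after *Chac1*, was that of *Gm17426* (3.17), which rests on the read named above. *Plk2*, a kinase of the p53 response, had 7.18, 7.04 and 11.6 RPKM in WT and 10.4, 10.7 and 8.33 RPKM in KO. Of the p53 list, only *Plk2* and *Cdkn1a* passed this test. Of the sterol list, *Sc4mol* (0.90) was among those that passed in the other direction (limma adjusted p = 0.0446). For most genes of both lists the opposite sign of the third pair was not shown to differ from pairs 1 and 2.

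**Figure D3:**
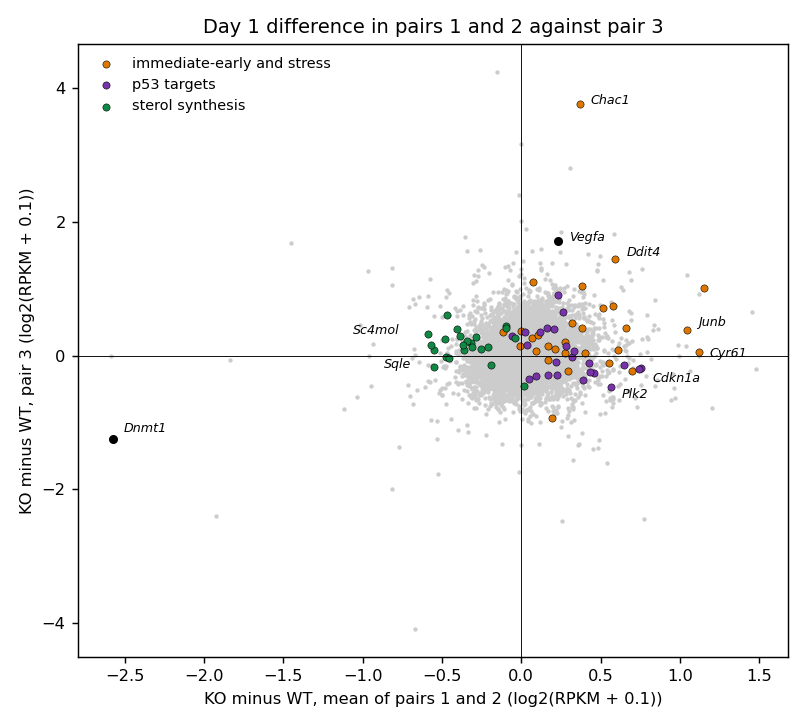
KO minus WT difference at day 1 of the 11615 genes tested, as the mean of pairs 1 and 2 (horizontal axis) against pair 3 (vertical axis), both on the log2(RPKM + 0.1) scale, with members of 3 lists coloured, *Dnmt1* and *Vegfa* in black and all other genes in grey. *Dnmt1* stands apart at the left, *Chac1* is at 3.77 in pair 3, and most sterol genes lie at the upper left and most p53 targets at the lower right of the origin.

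Taken over the genes tested, the pair differences had little in common. Pearson's r was 0.21 between pairs 1 and 2, 0.20 between pairs 1 and 3 and -0.0082 between pairs 2 and 3, given as a description since genes are not independent and share the libraries of a pair.

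Genes of the germline list showed little difference at day 1. The list was not silent in WT, where its 40 genes summed to 41.1, 42.9 and 94.7 RPKM in pairs 1, 2 and 3. *Rnf17* and *Tex15* had 2119 and 1569 reads in WT of pair 1. Which members DNA methylation holds silent in these cells was not tested. Of 40 listed, 30 were tested and none was called, with 2 higher and 1 lower at an unadjusted p below 0.05, where all genes gave 6.43% and 4.61%. *Slc25a31*, described above, was the member whose difference in the third pair was distinct. The median was -0.02 at day 1 and 0.67 at day 3, when 14 were called higher. *Rpl39l*, a ribosomal protein gene of the testis, had 0.946, 1.26 and 1.76 RPKM in WT and 1.81, 1.80 and 2.01 RPKM in KO (0.51, limma adjusted p = 0.191), without overlap, and a difference of 2.28 at day 3. *Gpat2*, an enzyme of the male germline, had 0.560, 0.456 and 0.687 RPKM in WT and 0.667, 0.720 and 0.779 RPKM in KO. *Rhox6*, a homeobox gene of the X-linked Rhox cluster, had 0.215, 0.208 and 0.776 RPKM in WT and 0.193, 0.196 and 0.885 RPKM in KO. *Rhox6* thus had no visible difference at day 1, while it was 2.42 higher in KO at day 3. Both *Rhox6* and *Gpat2* were under 1 RPKM in all 6 libraries and passed the filter only through libraries of other days. For such genes the filter favours high values on those days.

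Genes of the 2-cell embryo were close to absent, apart from *Eif1a*. This translation initiation factor had 21.6, 20.7 and 65.8 RPKM in WT and 19.5, 20.3 and 57.0 RPKM in KO, while the other 24 had at most 0.248 RPKM in any of the 6 libraries (*Gm8300*). Of 25 listed, 9 were tested and none was called, and the median was -0.10 at day 1 and 1.93 at day 3, when 8 were called higher. The tested members other than *Eif1a* were under 1 RPKM in all 6 libraries, so they passed the filter only through libraries of other days. Such a filter favours genes that are high on those days, and the day 3 values are given as a description. *Zscan4c*, a telomere-associated gene of the 2-cell stage, had 5, 0 and 3 reads in WT and 6, 9 and 3 reads in KO at day 1. At such counts a difference was not detectable. The Zscan4 genes also share reads with each other and are uncertain.

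Imprinted genes held no call. Of 43 listed, 36 were tested, and 7 were higher and 0 lower with an unadjusted p below 0.05, where all genes gave 6.43% and 4.61%. In all 3 pairs, 7 were higher and 4 lower, near the 32.4% of all genes that went 1 way, and of the 13 higher in pairs 1 and 2 the third pair was lower in 6. The median was 0.07 at day 1 and 0.40 at day 3, and that of day 1 was 0.024 with a pseudocount of 1 and 0.020 without pair 2. The 7 with an unadjusted p below 0.05 were *Igf2* (0.37), *H19* (0.19), *Nnat* (0.26), *Grb10* (0.16), *Mcts2* (0.18), *Ascl2* (0.59) and *Gnas* (0.23). *Igf2*, a growth factor made from the paternal copy, had 0.746, 0.824 and 0.701 RPKM in WT and 1.11, 0.992 and 0.913 RPKM in KO, without overlap. *H19*, the non-coding RNA made from the maternal copy beside it, had 11.5, 12.7 and 8.93 RPKM in WT and 13.5, 13.8 and 10.4 RPKM in KO. Their limma adjusted p values were 0.277 and 0.301, and the difference of *H19* grew to 1.28 at day 3.

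The methylation machinery other than *Dnmt1* held no call among 20 further genes tested. *Uhrf1*, which brings DNMT1 to newly made DNA, had 16.3, 16.3 and 34.6 RPKM in WT and 19.9, 18.6 and 35.2 RPKM in KO (0.17, limma adjusted p = 0.38). *Dnmt3a*, a de novo methyltransferase, had 2.66, 2.70 and 7.81 RPKM in WT and 2.48, 2.30 and 8.16 RPKM in KO. *Dnmt3b*, the other, had 22.6, 19.14 and 34.5 RPKM in WT and 18.5, 19.05 and 35.4 RPKM in KO. *Uhrf1* was higher in KO in each pair, while the de novo enzymes differed in sign between pairs. *Tet1*, which oxidizes methylcytosine, had pair differences of 0.18, -0.07 and 0.40.

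The remaining lists held no called gene. Over all genes tested, 6.43% were higher and 4.61% lower with an unadjusted limma p below 0.05. Of the 24 genes of the interferon and double-stranded RNA response, 9 were tested, of which 5 were higher and 0 lower in all 3 pairs, where 32.4% of all genes went 1 way, with a median of 0.13. A further 3 were lower in pairs 1 and 2 and higher in the third. Of the 9, *Ifitm3* and *Bst2* (0.20) were higher with an unadjusted p below 0.05, the sensor *Ddx58* had 0.13 and its adaptor *Mavs* 0.18. The classical interferon-induced genes *Ifit1*, *Isg15*, *Irf7* and *Oas1a* were too low to be tested. Of 15 genes of the small RNA pathway, *Dgcr8* (-0.22), of the microRNA processor, and *Tsn* (-0.16) were lower with an unadjusted p below 0.05. Of 28 genes of repressive chromatin, *Zfp809* (0.35), which silences retroviruses, was higher and *Rif1* (-0.16) lower by that measure. Of 26 pluripotency genes, *Klf5* (0.50), *Tcfcp2l1* (0.31), *Lefty2* (0.29) and *Esrrb* (0.26) were higher and *Fgf4* (-0.15) lower. *Pou5f1*, the core factor of the ESC state, had 58.1, 53.4 and 258.9 RPKM in WT and 59.4, 61.7 and 209.6 RPKM in KO. Of 10 structural non-coding RNA genes, *Mir17hg* (-0.29) and *Snhg12* (-0.20) were lower, and of 10 tested differentiation genes none had an unadjusted p below 0.05.

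Genes beside *Dnmt1* were examined as the neighbours of the recombined allele. Of 43 genes within 500 kb, 31 were tested and none was called, with a median of 0.02. *Icam1*, an adhesion molecule (on chromosome 9 between 20820404 and 20833241, plus strand (ENSMUSG00000037405.7)), had 3.02, 2.91 and 7.75 RPKM in WT and 3.93, 4.25 and 8.58 RPKM in KO (0.35, limma adjusted p = 0.191). *Mir1900* (0.46) and *Cdc37* (0.20) were also higher with an unadjusted p below 0.05. Among those lower by that measure were *Zfp26* (-0.23) and *Ppan* (-0.17). In total 3 of the 31 were higher and 3 lower, where all genes gave 6.43% and 4.61%.

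**Figure D4:**
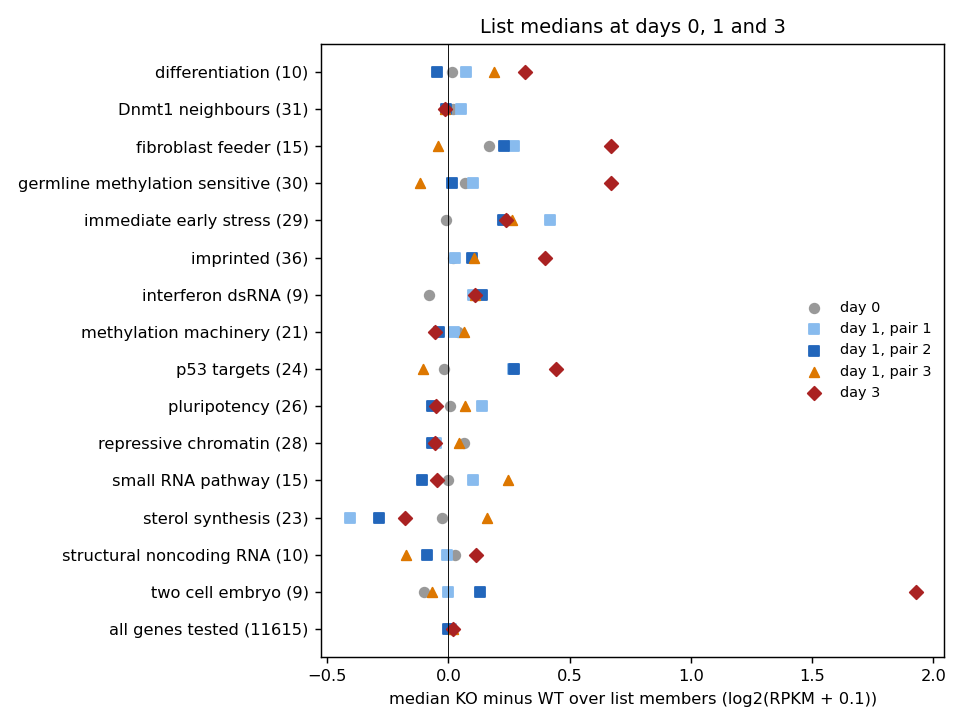
Median KO minus WT difference (horizontal axis, log2(RPKM + 0.1)) over the tested members of each list (vertical axis, number of members in parentheses) at day 0 (grey), in the 3 pairs of day 1 (blue squares and orange triangles) and at day 3 (red). The germline and 2-cell lists lie near 0 at day 1 and at 0.67 and 1.93 at day 3, while the immediate-early and stress list lies between 0.23 and 0.42 in the pairs of day 1. The tested 2-cell genes other than *Eif1a* passed the filter only through libraries of other days.

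From day 0 to day 1, over replicates 1 and 2, genes were called in both genotypes, and more of them in KO. These counts do not test a difference between the genotypes, and that test is given below. In WT 828 genes rose and 587 fell (12.2%), and in KO 1393 rose and 1237 fell (22.6%). These comparisons share no library, and 541 genes rose in both, 65.3% of those that rose in WT and 38.8% of those in KO. A further 430 fell in both, 73.3% of those in WT and 34.8% of those in KO, and 4 went opposite ways. When any 1 of the 4 libraries was left out, the WT count lay between 370 and 872 and the KO count between 1149 and 1702. With the third library of day 1 added they were 35 and 321.

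Among called genes with a mean log2(RPKM + 0.1) of at least 0, the largest rises in WT were *Gm12139* (1.65), *Ppp1r10* (1.32), *Fabp3* (1.23), *Acss1* (1.201), *Rhob* (1.14), a small GTPase, and *Dcaf12l1* (1.12). The largest falls in WT were *2400009B08Rik* (-1.44), *Ankrd37* (-1.42), a hypoxia-induced gene, *Ier3* (-1.04), *Cox7b2* (-0.997), *Gm12867* (-0.98) and *Gm16512* (-0.98). In KO the largest rises were *Rps16* (1.98), *Jun* (1.61), *Cyr61* (1.53), *Ldhb* (1.45), *Notch3* (1.38) and *Gm12139* (1.31). The largest falls in KO were *Dnmt1* (-2.61), *Enox1* (-1.17), *Gm15055* (-1.10), *Dnmt3a* (-1.064), *Zfp428* (-1.05) and *Cth* (-1.01). *Dnmt3a* fell in WT too (-0.84), and *Rps16* has processed copies that share its reads, so that its value is uncertain.

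Over the 11615 genes tested, 1393 rose and 1237 fell in KO, and 828 rose and 587 fell in WT. Of the 29 tested genes of the immediate-early and stress list, 13 rose and 1 fell in KO, and 6 rose and 4 fell in WT. Of the 24 p53 targets, 12 rose and 0 fell in KO, and 3 rose and 2 fell in WT. Of the 23 sterol genes, 4 fell in KO (*Sqle*, *Idi1*, *Lss* and *Acat2*) and 2 rose (*Dhcr7* and *Srebf2*), while in WT 6 rose and 0 fell. *Sqle* went from 4.28 and 4.89 RPKM at day 0 to 6.01 and 5.40 RPKM at day 1 in WT, and from 4.62 and 4.51 RPKM to 3.92 and 3.82 RPKM in KO. *Dusp6* fell in both, from 10.1 and 9.31 RPKM to 4.72 and 5.09 RPKM in WT, and from 9.51 and 9.64 RPKM to 7.33 and 7.16 RPKM in KO. Its higher level in KO at day 1 was thus a smaller fall. Other lists moved as well. Of 28 genes of repressive chromatin, 13 fell and 2 rose in KO, and 7 fell and 3 rose in WT. Of 21 genes of the methylation machinery, *Dnmt1* included, 9 fell and 0 rose in KO, and 5 fell and 1 rose in WT.

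The difference between the KO and the WT change passed for 17 genes (0.146%), 15 more positive and 2 more negative in KO. The list members among them were *Dnmt1* (-2.59), *Cyr61* (1.13), *Junb* (0.95), *Cdkn1a* (0.91), *Ifitm3* (0.68) and *Dusp6* (0.57). No sterol gene passed, and for *Sqle* the difference was -0.54 (limma adjusted p = 0.0733). The 17 became between 2 and 12 when any 1 of the 8 libraries was left out, and 0 in limma with the third libraries added.

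Genes called at day 3 already leaned the same way at day 1, in pairs 1 and 2 more than in the third. At day 3, 724 genes were higher in KO (6.23%) and, beside *Dnmt1*, 326 were lower (2.82% with it). The filter also took in genes that were high only on other days, whose direction at day 1 rests on low values. When RPKM had to exceed 1 in 2 or more libraries of days 0 and 1, 521 of 10136 genes were higher at day 3. By that filter 307 were lower, *Dnmt1* counted. The shares that follow are those of the main filter. Of the 724, 78.6% were higher in pair 1, 73.6% in pair 2 and 59.0% in pair 3, where all genes gave 52.6%, 49.5% and 52.4%. Their median difference was 0.11 at day 1 and 0.62 at day 3. Of the 326, 68.1%, 63.5% and 50% were lower in pairs 1, 2 and 3, where all genes gave 47.3%, 50.2% and 47.5%. At day 9, 1767 genes were higher (15.2%) and, beside *Dnmt1*, 1123 lower (9.68% with it). Of the 1767, 60.5%, 66.5% and 42.0% were higher in pairs 1, 2 and 3 of day 1, and of the 1123, 52.2%, 66.2% and 30.5% were lower.

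**Figure D5:**
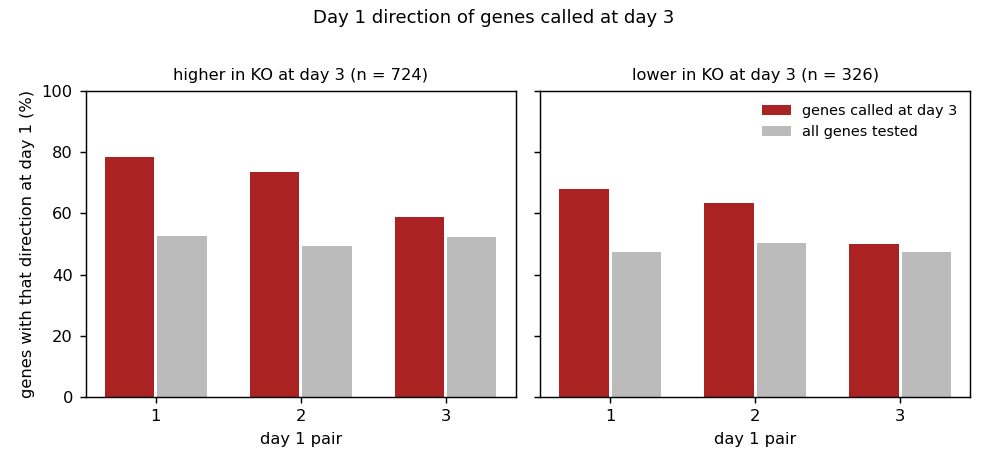
Share of genes (vertical axes, percent, from 0) with the direction of day 3 in each pair of day 1 (horizontal axes), for the 724 genes called higher and the 326 called lower in KO at day 3 (red) and for all genes tested (grey). Among the genes called higher the share was 78.6% and 73.6% in pairs 1 and 2 and 59.0% in the third. The filter also took in genes that were high only on other days.

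Between day 1 and day 3 the KO minus WT difference changed for 212 genes (1.83%), towards KO for 145 and towards WT for 67. Over all 11615 genes tested, 145 went towards KO and 67 towards WT. Those towards KO held 8 of 30 germline genes, 5 of 9 genes of the 2-cell embryo and 3 of 36 imprinted genes. Those towards WT held 3 of 29 immediate-early and stress genes. These early and stress genes were *Dusp6* (-0.83), *Spry4* (-1.17) and *Gadd45a* (-0.53), a growth arrest gene. Of 10 differentiation genes, 2 went towards KO and 1 towards WT. A single gene went towards KO among 24 p53 targets and among 31 neighbours of *Dnmt1*, and 1 of 21 methylation machinery genes went towards WT. No sterol gene and no fibroblast gene passed. The limit of the filter given above for 2-cell and germline genes holds here too. The 212 became 22 without a block for the pairs, between 127 and 179 when a pair of day 1 was left out, and 42 or 41 when the first or second pair of day 3 was.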

How the data were processed

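Total RNA of ESCs was sequenced, and 6 of the 35 libraries (day 1) are described, beside those of the other days of the same series. Per the submitters' processing notes, reads were trimmed with Trim Galore 0.3.5, aligned with TopHat2 2.0.11 to NCBIM37, filtered by mapping quality and counted over exons in SeqMonk. The table deposited by the authors holds linear RPKM per gene (26127 rows, of which 125 share a symbol), although the study's methods name a log2 scale of reads per mega-read, and the test was applied to log2 of the deposited RPKM. Columns left without a sample numbered 0. With exon lengths from the annotation (99.9% of rows), low values came out as whole reads in 99.5% to 99.7% of cases (within 0.1 read, up to 20 reads), so library sizes were recovered from the table.

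Values were transformed as log2(RPKM + 0.1), 11615 genes were kept that exceeded 1 RPKM in 2 or more of 34 libraries (17 WT and KO pairs), and pair differences were fitted for all days together with limma 3.58.1 (R 4.3.3), with 9 residual and 5.40 prior degrees of freedom, so days share an estimate of the spread. Tables and figures used Python 3.11.15, numpy 2.4.6, pandas 2.3.3 and matplotlib 3.10.9. The code was tested on simulated data. Replicate numbers come from the titles. Deviations of WT and KO libraries with the same number from their group means had an r of 0.83, 0.78 and 0.91 over genes for numbers 1, 2 and 3, values set by the third pair, whereas the deviation of number 1 from number 2 gave -0.13. No 2 replicates were the same library (chi-square per degree of freedom of 1.70 in WT and 1.95 in KO of pairs 1 and 2). 

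Genes named are those called, the next 8 by p in each direction with 1 sign in all pairs, the 6 largest rises and falls of the other comparisons among called genes with a mean log2(RPKM + 0.1) of at least 0, and members of 15 lists. Members and lists were chosen with earlier results of these data known. Alternatives were another pseudocount, no filter on low values, the filter on libraries of days 0 and 1 only, median centring and voom on recovered reads. Others were no block for the pairs, the day 1 libraries alone, leaving out day 6, and leaving out each replicate. Chosen after seeing the data were the fits of the third pair without pair 1, without pair 2 and without the block, its own KO effect, and the fits without a replicate of day 3. Motifs were searched in the promoters of the RefSeq table (GRCm38.p6), and no GRCm38 coordinate was joined to an NCBIM37 one. Transposable elements were not analysed here, and values of a few list members are not reported here. Read numbers bound the precision of low genes, with a floor of 3 reads that covers counting error only.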

Additional observations from a re-analysis of the deposited data

Results flagged for a closer look

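The KO minus WT difference changed between day 1 and day 3 for 212 genes in limma. Among genes with a mean log2(RPKM + 0.1) of at least 0, the largest gains were those of *Gm14149* (2.91), *Rhox6* (2.42), *Gm17672* (1.99), *Cox7b2* (1.97), *Tsx* (1.82) and *Rpl39l* (1.77). Of these, *Rhox6*, *Cox7b2* and *Rpl39l* are genes of the germline list. The largest losses were those of *Bnip3* (-1.78), *Otx2* (-1.67), *Egln3* (-1.42), *Pck2* (-1.40), *Spry4* (-1.17) and *Aire* (-1.07). *Bnip3* and *Egln3* are known hypoxia targets, and *Otx2* is a factor of the step out of naive pluripotency.

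The change from day 0 to day 1 differed between KO and WT for 17 genes in limma. It was more positive in KO for *Pbld1* (1.43), *Gm9104* (1.42), *Cyr61* (1.13), *BC051077* (1.062), *Ppip5k1* (0.998) and *Junb* (0.95), the largest with a mean of at least 0 on that scale. *Gm17329* (1.51) was above them all but had a lower mean, with 9 and 4 reads in WT and 11 and 11 reads in KO at day 1. It was more negative for *Dnmt1* (-2.59) and *Zfp386* (-0.88). All values are differences on the log2(RPKM + 0.1) scale, and they rest on replicates 1 and 2.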

How the results depend on the processing

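The 2 genes called at day 1 became 1 without the filter on low values, 8 with voom, 1 without a block for the pairs, 0 in limma with the day 1 libraries alone (where *Dnmt1* kept its value of -2.13 and lost its call) and between 1 and 20 when a pair was left out. The 24 genes that set the third pair apart became 14 with a pseudocount of 1, 284 without the filter, 5 without day 6, 51 without the block and 5 or 1 without pair 1 or 2, and they could not be tested without the third pair. The 212 genes of day 3 against day 1 became 131 without the filter, 22 without the block and 138, 179 and 127 without pairs 1, 2 and 3 of day 1, and 42 or 41 without the first or second pair of day 3. The day 0 to day 1 counts (1415 in WT and 2630 in KO) became 35 and 321 with the third replicate, and ranged from 370 to 872 and from 1149 to 1702 when a replicate was left out. The 17 genes that changed otherwise in KO became 3 with a pseudocount of 1, 6 without the filter, 9 with median centring, 11 with voom, 0 with the third replicate and from 2 to 12 when a replicate was left out. With the replicate number as a replicate block these 3 counts were 1426, 2638 and 18. The median of the immediate-early list was 0.22 with a pseudocount of 1 and 0.20 without pair 1. That of the imprinted list was 0.024 with a pseudocount of 1, 0.14 with voom and 0.020 without pair 2. That of the interferon list was 0.077 with a pseudocount of 1, 0.10 without the filter, 0.11 with centring, 0.21 without pair 1 and 0.16 without the third pair. Without the third pair the germline median was 0.089 and that of the 2-cell list 0.0056. No value changed sign past its threshold under the alternatives run, and the cause of each move was not tested. Of the values of single named genes, 727 kept their side of the threshold, 192 lost the call and 6 gained one.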
